A study of Mus musculus with 18 samples.

Results

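A set of 37 interferon stimulated genes was followed in the lacrimal glands (LGs) of 18 male mice. The genes were picked by symbol, as antiviral genes that type I interferon is known to induce, with earlier results of these data known. Shares of all genes beside their counts are therefore a description and not independent support. All 37 symbols were found among the 54232 genes of the count table, and all 37 passed the filter on low counts in every comparison. The mice were untreated males of 2 inbred strains, BALB/cJ (BALB/c) and NOD.B10Sn-H2b/J (NOD.H-2b), killed at 2, 4 or 6 months of age (2M, 4M and 6M), with 3 mice per strain and age. Each sample was 1 LG of 1 mouse, sequenced as total RNA after removal of ribosomal RNA. NOD.H-2b mice carry the H2b haplotype on a NOD background and serve as a model of primary Sjögren's syndrome, in which lymphocytes enter the LG and the salivary glands. The BALB/c controls are a different inbred strain and not a congenic partner, so an effect of strain background and an effect of disease cannot be told apart in any comparison of the strains.

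Type I interferons are secreted when a cell senses foreign or misplaced nucleic acid. They bind a receptor made of IFNAR1 and IFNAR2, and the kinases JAK1 and TYK2 then activate a signal that brings STAT2 and IRF9 together in the factor ISGF3. ISGF3 binds the interferon stimulated response element (ISRE) in promoters and switches on genes whose products block viral RNA, translation, assembly and release, as well as sensors and transcription factors that feed the response. Type II interferon (interferon gamma), made by T and NK cells, acts on gamma activated sites (GAS) and raises an overlapping set of genes.

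Total counts ran from 49480781 to 103936830 per LG. Levels are given in CPM, counts relative to the library total after scaling by edgeR's TMM factors, and values for 3 mice follow replicates 1, 2 and 3. The lowest count of any of the 37 genes in any LG was 9, in a BALB/c mouse at 2M, so none was at the floor of 3 counts. The tissue label held, since the secretoglobin gene Scgb2b7, a main secretory product, had a 2M mean of 71721 CPM for BALB/c and of 61976 CPM for NOD.H-2b. In whole-gland RNA, more cells of a type and more RNA per cell cannot be told apart.

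Promoter sequence was matched for 27 of the 37 genes from RefSeq (GRCm38.p6, the C57BL/6J reference, not the strains sequenced). The letters of an ISRE core, GAAA and GAAA with any 2 bases between them, were searched on both strands (TTTC and TTTC on the other) in the 250 bases before each start. They occurred in 10 of the 27 genes (Isg15, Ifit1, Ifit3, Ifit3b, Rsad2, Oas3, Oas1a, Bst2, Stat2 and Trim30a), against 2.98% of 32851 promoters of the same length. The GAS letters TTCNNNGAA, which read the same on both strands, occurred in 4 (Oas1a, Bst2, Eif2ak2 and Ifit2), against 7.02% of promoters. In Bst2 the GAS match overlapped an ISRE match. A match is a string of letters and not a site known to be bound. The stretches below come from 7 of these 10 promoters, shown as examples from the ISG15, IFIT, viperin, OAS and TRIM genes, and are written 5′ to 3′ on the gene's strand, with the ISRE letters in capitals. Isg15 lies at chr4:156200819-156200918 (minus strand) and held 3 overlapping matches from position -78 to position -66, counted back from the start. Ifit1 lies at chr19:34640765-34640864 (plus), Ifit3 at chr19:34583353-34583452 (plus), Ifit3b at chr19:34607749-34607848 (plus), Rsad2 at chr12:26456493-26456592 (minus), Oas3 at chr5:120777660-120777759 (minus) and Trim30a at chr7:104465194-104465293 (minus).
Isg15: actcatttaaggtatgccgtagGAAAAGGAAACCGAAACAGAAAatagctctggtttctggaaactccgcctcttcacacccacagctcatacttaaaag
Ifit1: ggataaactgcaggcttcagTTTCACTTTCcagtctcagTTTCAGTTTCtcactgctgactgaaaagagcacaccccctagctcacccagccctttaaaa
Ifit3: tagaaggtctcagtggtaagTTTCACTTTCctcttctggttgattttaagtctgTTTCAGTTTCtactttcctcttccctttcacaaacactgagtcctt
Ifit3b: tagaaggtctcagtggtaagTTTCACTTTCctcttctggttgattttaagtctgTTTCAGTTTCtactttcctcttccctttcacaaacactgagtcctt
Rsad2: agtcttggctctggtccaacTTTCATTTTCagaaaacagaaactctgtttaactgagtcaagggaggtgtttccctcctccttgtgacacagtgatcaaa
Oas3: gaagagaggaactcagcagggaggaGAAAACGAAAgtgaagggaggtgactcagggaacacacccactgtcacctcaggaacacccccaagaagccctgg
Trim30a: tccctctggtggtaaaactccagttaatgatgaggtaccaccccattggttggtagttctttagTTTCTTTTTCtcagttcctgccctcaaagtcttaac
Ifit3 and Ifit3b were identical over 100 of 100 bases, and each held 2 matches. Ifit1 also held 2.

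Many of the genes lie side by side. The families formed clusters: Ifit1, Ifit2, Ifit3 and Ifit3b within 99.3 kb of chromosome 19, Oas1a, Oas2 and Oas3 within 177 kb of chromosome 5, Oasl1 and Oasl2 within 41 kb of the same chromosome, and Mx1 and Mx2 within 114 kb of chromosome 16. Parp9, Dtx3l and Parp14 shared 140 kb of chromosome 16, and Rsad2 and Cmpk2 shared 37.1 kb of chromosome 12 (GRCm38). Some copies are close enough for reads to fit both. Of the 75-base windows of its exons, Oas1a shared 47.6% with Oas1g, Ifit3 shared 41.1% with Ifit3b, and Ifit3b shared 35.7% with Ifit3. The values of these 3 genes are therefore uncertain. Smaller shares were 11.3% for Herc6 (mainly with Gm45193), 10.5% for Rtp4 (with Gm45338) and 7.42% for Ifi35 (with Gm11626). Gm45193 and Gm45338 overlap exons of Herc6 and Rtp4 on the same strand, so some reads of these 2 may also fit both genes. Parp9 and Dtx3l overlap on opposite strands and shared 6.63% and 6.72% of their windows.

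The first question was whether the antiviral genes differed between the strains at each age. They were higher in NOD.H-2b LGs at 2M in 37 of 37 cases, at 4M in 36 and at 6M in 36, by edgeR's quasi-likelihood test at a Benjamini-Hochberg adjusted p (FDR) under 0.05 over all genes. Among all genes tested, 22.5% were called higher at 2M, 23.4% at 4M and 28.6% at 6M. None of the 37 was called lower at any age, against 17.2%, 19.2% and 25.8% of all genes. With a 2-fold minimum added, 34, 33 and 34 of the 37 were differentially expressed genes (DEGs), against 12%, 15.6% and 18.8% of all genes higher and 3.76%, 4.72% and 6.03% lower by this rule. The median log2 fold change of the 37 came to 2.59, 2.21 and 2.17 in age order, and the medians over all genes tested were 0.01, 0.00 and -0.00. The call held for 36 genes at all 3 ages, and 33 were at least 2-fold higher and called at each age. The exception was Ifih1.

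Every NOD.H-2b mouse stood above every age-matched BALB/c mouse in 37 genes at 2M, 36 at 4M and 36 at 6M (25.3%, 28.4% and 31.2% of all genes tested). Across the ages, all 9 NOD.H-2b mice exceeded all 9 BALB/c mice in 34 of the 37, against 11.2% of all genes. The genes whose strains overlapped across ages were Eif2ak2, Ifi44 and Ifih1. Averaged over the ages, 36 genes were higher and 0 lower by edgeR, against 32.5% and 33.1% of 19117 genes. Of the 36, 34 were at least 2-fold higher, against 17.6% of all genes higher and 5.19% lower by that rule. Zbp1 differed most, with an averaged log2 fold change of 4.61 ± 0.23 (SE). The plot of strain differences by role shows these values for each gene.

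**Figure D1:**
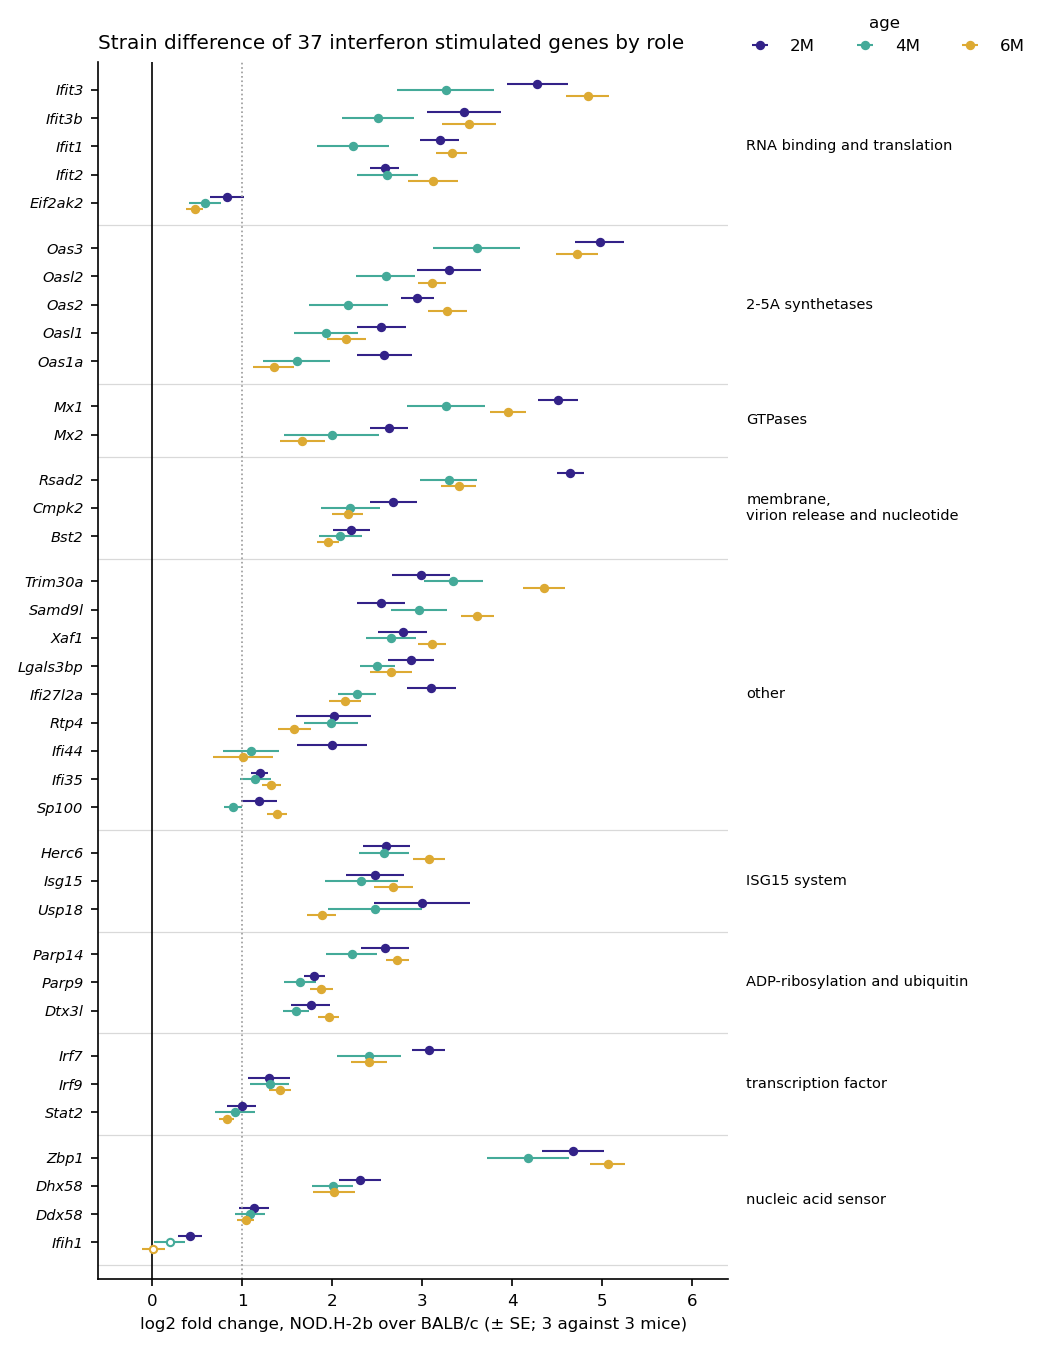
Log2 fold change of NOD.H-2b over BALB/c (x axis, ± SE, 3 against 3 mice) for the 37 genes, grouped by role, at 2M, 4M and 6M. Filled points passed an FDR of 0.05, and the dotted line marks 2-fold. Ifih1 alone has open points, at 4M and 6M.

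ISG15 is a ubiquitin-like protein that is conjugated to other proteins during the response. Isg15 in BALB/c stood at 0.745, 0.592 and 0.264 CPM at 2M, 1.01, 0.569 and 0.641 CPM at 4M, and 0.633, 0.575 and 0.584 CPM at 6M. Isg15 in NOD.H-2b stood at 2.39, 3.42 and 2.80 CPM at 2M, 3.33, 2.07 and 5.75 CPM at 4M, and 4.55, 3.04 and 3.68 CPM at 6M. The strains did not overlap at any age, and the log2 fold changes at 2M, 4M and 6M were 2.47 ± 0.32, 2.32 ± 0.41 and 2.68 ± 0.22 (SE, adjusted p = 0.000139, 0.00216 and 5.37e-06).

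Herc6, the main ISG15 ligase in the mouse, had the largest average difference of the ISG15 genes. Herc6 in BALB/c measured 1.95, 2.08 and 1.01 CPM at 2M, 2.36, 1.69 and 2.97 CPM at 4M, and 1.92, 2.30 and 2.55 CPM at 6M. Herc6 in NOD.H-2b measured 8.74, 11.8 and 9.05 CPM at 2M, 15.4, 9.68 and 16.9 CPM at 4M, and 22.8, 14.8 and 17.5 CPM at 6M. The lowest NOD.H-2b mouse was well above the highest BALB/c mouse, and the averaged difference was 2.72 ± 0.17. Usp18, which removes ISG15 and damps signalling at IFNAR2, varied more between mice. Usp18 in BALB/c measured 2.04, 4.07 and 0.811 CPM at 2M, 3.76, 2.28 and 3.18 CPM at 4M, and 4.68, 3.17 and 3.55 CPM at 6M. Usp18 in NOD.H-2b measured 16.5, 19.8 and 17.5 CPM at 2M, 15.4, 8.12 and 27.8 CPM at 4M, and 15.2, 14.2 and 12.1 CPM at 6M. Its differences at the 3 ages were 3.00 ± 0.54, 2.48 ± 0.52 and 1.88 ± 0.16. The call was lost at 2M without BALB/c replicate 1 (adjusted p = 0.0561) and at 4M without BALB/c replicate 3 or NOD.H-2b replicate 1 (adjusted p = 0.0634 and 0.0612).

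The transcription factors of the pathway differed by unequal amounts. IRF7 drives the second wave of interferon production, while STAT2 and IRF9 are subunits of ISGF3. Irf7 in BALB/c ran at 4.17, 4.45 and 3.12 CPM at 2M, 6.86, 6.76 and 5.87 CPM at 4M, and 8.30, 8.43 and 5.52 CPM at 6M. Irf7 in NOD.H-2b ran at 25.7, 36.0 and 33.8 CPM at 2M, 40.4, 18.8 and 44.1 CPM at 4M, and 48.1, 34.2 and 33.8 CPM at 6M. The strains were apart at every age, by 3.07 ± 0.18, 2.41 ± 0.36 and 2.41 ± 0.20 on the log2 scale. Stat2 started from a much higher level in the controls. Stat2 in BALB/c ran at 43.0, 61.9 and 42.4 CPM at 2M, 56.3, 42.0 and 50.4 CPM at 4M, and 53.0, 44.5 and 48.7 CPM at 6M. Stat2 in NOD.H-2b ran at 91.8, 101 and 91.7 CPM at 2M, 88.4, 70.9 and 121 CPM at 4M, and 89.5, 80.4 and 83.3 CPM at 6M. Its difference was under 2-fold at each age, 0.99 ± 0.16, 0.92 ± 0.22 and 0.83 ± 0.08, and the 4M call (adjusted p = 0.0195) was lost without BALB/c replicate 2, BALB/c replicate 3 or NOD.H-2b replicate 1 (adjusted p = 0.0519, 0.0538 and 0.0815). Irf9 lay between them, at 1.30, 1.31 and 1.42.

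The 4 nucleic acid sensors spanned the whole range of the set. ZBP1 binds Z-form nucleic acid and can start necroptosis. Zbp1 in BALB/c was at 0.287, 0.431 and 0.441 CPM at 2M, 1.16, 0.467 and 1.49 CPM at 4M, and 0.655, 0.703 and 0.748 CPM at 6M. Zbp1 in NOD.H-2b was at 6.17, 12.6 and 10.1 CPM at 2M, 22.3, 12.6 and 22.5 CPM at 4M, and 28.2, 17.7 and 22.2 CPM at 6M. The difference was 4.67 ± 0.34, 4.17 ± 0.46 and 5.06 ± 0.19, the largest of the 37 at 4M and 6M. Ddx58 encodes RIG-I, a sensor of viral RNA ends. Ddx58 in BALB/c was at 17.3, 24.7 and 16.2 CPM at 2M, 23.1, 21.3 and 18.6 CPM at 4M, and 24.5, 20.9 and 25.7 CPM at 6M. Ddx58 in NOD.H-2b was at 38.5, 43.5 and 42.0 CPM at 2M, 45.3, 33.9 and 53.9 CPM at 4M, and 51.9, 46.3 and 44.5 CPM at 6M. The groups did not overlap, and the difference was close to 2-fold throughout, at 1.13, 1.09 and 1.04. Dhx58, which encodes the RIG-I relative LGP2, differed by 2.31, 2.00 and 2.02.

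Ifih1 encodes MDA5, a sensor of long double-stranded RNA, and was the gene that separated the strains least. Ifih1 in BALB/c was at 28.0, 38.1 and 26.6 CPM at 2M, 35.5, 35.3 and 29.7 CPM at 4M, and 40.5, 35.3 and 28.4 CPM at 6M. Ifih1 in NOD.H-2b was at 38.3, 41.9 and 40.1 CPM at 2M, 34.6, 30.9 and 49.0 CPM at 4M, and 36.7, 34.9 and 31.0 CPM at 6M. The strains overlapped at 4M and at 6M, where the log2 differences were 0.19 ± 0.17 and 0.01 ± 0.13 (adjusted p = 0.422 and 0.951). The call at 2M (0.42 ± 0.14, adjusted p = 0.0493) was lost under 9 of 13 alternatives, among them the removal of any of the 3 NOD.H-2b mice (adjusted p = 0.083, 0.172 and 0.139) or of BALB/c replicate 1 or 3 (adjusted p = 0.14 and 0.104).

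The IFIT proteins bind RNA with foreign ends and halt its translation. Ifit3 in BALB/c read 0.822, 0.556 and 0.282 CPM at 2M, 1.47, 0.447 and 1.21 CPM at 4M, and 0.386, 0.532 and 0.514 CPM at 6M. Ifit3 in NOD.H-2b read 8.20, 13.0 and 9.84 CPM at 2M, 9.38, 5.88 and 15.0 CPM at 4M, and 17.0, 11.4 and 10.5 CPM at 6M. The gap was 4.28 ± 0.34, 3.26 ± 0.54 and 4.84 ± 0.24, and its near copy Ifit3b gave 3.46, 2.50 and 3.52. Ifit1 and Ifit2 rose by 3.20 and 2.58 at 2M, 2.23 and 2.61 at 4M, and 3.33 and 3.12 at 6M. Eif2ak2 encodes PKR, the kinase that shuts down translation on sensing double-stranded RNA. Eif2ak2 in BALB/c read 14.7, 22.2 and 13.7 CPM at 2M, 18.8, 16.3 and 15.2 CPM at 4M, and 20.9, 19.2 and 19.9 CPM at 6M. Eif2ak2 in NOD.H-2b read 31.1, 29.1 and 27.1 CPM at 2M, 23.1, 19.8 and 32.2 CPM at 4M, and 29.7, 27.6 and 23.8 CPM at 6M. Age-matched mice did not overlap, but the difference was small, at 0.83 ± 0.19, 0.58 ± 0.18 and 0.47 ± 0.10 (adjusted p = 0.0163, 0.0326 and 0.00221). The 2M call was lost without BALB/c replicate 1 or NOD.H-2b replicate 1 or 2 (adjusted p = 0.0512, 0.0603 and 0.0749), and the 4M call without BALB/c replicate 2 or 3 or NOD.H-2b replicate 1 (adjusted p = 0.104, 0.0988 and 0.0884).

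The 2′,5′-oligoadenylate synthetases make the messenger that activates RNase L. Oas3 in BALB/c came to 0.306, 0.197 and 0.159 CPM at 2M, 0.682, 0.609 and 1.12 CPM at 4M, and 0.429, 0.277 and 0.444 CPM at 6M. Oas3 in NOD.H-2b came to 4.92, 7.84 and 7.39 CPM at 2M, 9.21, 5.27 and 15.3 CPM at 4M, and 12.7, 8.93 and 8.54 CPM at 6M. At 2M this was the largest difference of the 37, 4.97 ± 0.28 or 31.3-fold, and it was 3.60 ± 0.48 at 4M and 4.72 ± 0.24 at 6M. Oas1a, whose reads may be shared with Oas1g, differed least of this family on the average over ages, though Oasl1 differed slightly less at 2M. Oas1a in BALB/c came to 1.41, 2.01 and 0.723 CPM at 2M, 3.13, 3.07 and 1.51 CPM at 4M, and 4.05, 2.88 and 2.08 CPM at 6M. Oas1a in NOD.H-2b came to 8.05, 7.20 and 8.77 CPM at 2M, 6.85, 5.34 and 11.1 CPM at 4M, and 7.37, 8.63 and 6.71 CPM at 6M. The gap was 2.58 ± 0.31, 1.60 ± 0.38 and 1.35 ± 0.23, and the 4M call was lost without the filter on low counts (adjusted p = 0.0623). Oas2, Oasl1 and Oasl2 were 2.94, 2.54 and 3.29 higher at 2M, 2.18, 1.93 and 2.60 higher at 4M, and 3.28, 2.16 and 3.11 higher at 6M. The 4M call of Oas2 was lost without BALB/c replicate 1 (adjusted p = 0.0517).

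Mx1 and Mx2 belong to a family of dynamin-like GTPase genes whose proteins can trap viral nucleocapsids. Whether these strains make working Mx protein was not tested. Mx1 in BALB/c reached 0.325, 0.449 and 0.300 CPM at 2M, 1.20, 0.447 and 1.33 CPM at 4M, and 0.783, 0.682 and 0.538 CPM at 6M. Mx1 in NOD.H-2b reached 6.92, 9.88 and 6.99 CPM at 2M, 10.1, 6.39 and 12.4 CPM at 4M, and 12.6, 8.68 and 9.78 CPM at 6M. Its difference of 4.51 ± 0.22, 3.26 ± 0.43 and 3.95 ± 0.20 exceeded that of Mx2 at each age. Mx2 in BALB/c reached 1.45, 1.88 and 0.935 CPM at 2M, 2.89, 1.44 and 2.49 CPM at 4M, and 1.72, 2.64 and 3.02 CPM at 6M. Mx2 in NOD.H-2b reached 7.73, 9.57 and 8.35 CPM at 2M, 7.17, 4.73 and 15.4 CPM at 4M, and 9.72, 5.77 and 7.01 CPM at 6M. The Mx2 difference was 2.63 ± 0.21, 1.99 ± 0.53 and 1.67 ± 0.25, and the 4M call (adjusted p = 0.0301) was lost without NOD.H-2b replicate 1 or any of the 3 BALB/c mice (adjusted p = 0.079, 0.0738, 0.0767 and 0.0894).

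Rsad2 encodes viperin, which makes a chain-terminating nucleotide, and its neighbour Cmpk2 supplies nucleotide for it. Rsad2 in BALB/c lay at 0.497, 0.520 and 0.388 CPM at 2M, 0.958, 0.833 and 1.16 CPM at 4M, and 0.955, 0.682 and 0.725 CPM at 6M. Rsad2 in NOD.H-2b lay at 12.4, 11.7 and 10.1 CPM at 2M, 8.59, 6.43 and 14.2 CPM at 4M, and 9.77, 8.16 and 7.01 CPM at 6M. The difference was 4.64 ± 0.15 at 2M, with the smallest adjusted p of the 37 (1.7e-09), 3.29 ± 0.32 at 4M and 3.40 ± 0.20 at 6M. Cmpk2 differed by 2.68, 2.20 and 2.17. Bst2 encodes tetherin, which holds budding virions at the cell surface. Bst2 in BALB/c lay at 2.66, 3.79 and 2.36 CPM at 2M, 2.75, 4.55 and 4.15 CPM at 4M, and 3.87, 4.37 and 3.72 CPM at 6M. Bst2 in NOD.H-2b lay at 10.7, 13.5 and 15.4 CPM at 2M, 17.4, 12.0 and 19.1 CPM at 4M, and 16.7, 13.4 and 15.0 CPM at 6M. No mice overlapped, and the difference was 2.21 ± 0.20, 2.09 ± 0.24 and 1.95 ± 0.12.

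Among the other effectors, Trim30a, a TRIM-family E3 ligase gene, and Samd9l, a restriction factor gene that limits translation, had the largest NOD.H-2b changes from 2M to 6M, given further on. Trim30a in BALB/c gave 1.89, 2.39 and 1.50 CPM at 2M, 3.23, 1.93 and 2.89 CPM at 4M, and 1.60, 2.41 and 1.87 CPM at 6M. Trim30a in NOD.H-2b gave 10.3, 20.0 and 14.2 CPM at 2M, 35.5, 18.0 and 28.3 CPM at 4M, and 49.9, 30.4 and 35.1 CPM at 6M. Its strain difference was 2.99 ± 0.32, 3.34 ± 0.33 and 4.35 ± 0.23. Samd9l in BALB/c gave 3.53, 5.12 and 3.60 CPM at 2M, 6.21, 4.85 and 7.89 CPM at 4M, and 5.37, 6.52 and 5.56 CPM at 6M. Samd9l in NOD.H-2b gave 17.7, 30.1 and 21.5 CPM at 2M, 65.6, 34.6 and 48.0 CPM at 4M, and 88.0, 55.0 and 64.8 CPM at 6M. The strains stayed apart, by 2.54 ± 0.27, 2.97 ± 0.31 and 3.61 ± 0.18.

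Ifi27l2a, a small mitochondrial protein gene, was the most abundant of the set per length in NOD.H-2b, at 61.7 CPM per kb of exon at 2M. In BALB/c at 2M it ranked behind Stat2 (7.42 against 8.28 CPM per kb), and Oas3 was lowest in both strains (0.0312 and 0.95 CPM per kb). Ifi27l2a in BALB/c gave 4.11, 3.88 and 2.33 CPM at 2M, 4.68, 5.50 and 3.68 CPM at 4M, and 5.84, 6.01 and 4.18 CPM at 6M. Ifi27l2a in NOD.H-2b gave 21.7, 32.2 and 31.8 CPM at 2M, 26.3, 16.7 and 23.6 CPM at 4M, and 27.6, 23.0 and 18.7 CPM at 6M. The difference was 3.10 ± 0.28, 2.27 ± 0.21 and 2.14 ± 0.18. Sp100, a component of nuclear bodies, was abundant in both strains. Sp100 in BALB/c gave 33.8, 35.4 and 22.7 CPM at 2M, 50.4, 57.6 and 46.7 CPM at 4M, and 42.4, 36.7 and 39.1 CPM at 6M. Sp100 in NOD.H-2b gave 69.7, 74.9 and 58.9 CPM at 2M, 105, 84.4 and 97.0 CPM at 4M, and 117, 89.3 and 95.5 CPM at 6M. Age-matched groups did not overlap, with differences of 1.19 ± 0.20, 0.89 ± 0.10 and 1.39 ± 0.11.

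The remaining effectors were also higher in NOD.H-2b at each age. Xaf1, a pro-apoptotic gene, differed by 2.78, 2.65 and 3.11 at 2M, 4M and 6M, and Lgals3bp, a secreted galectin ligand, by 2.88, 2.50 and 2.65. Rtp4, a receptor chaperone, differed by 2.01, 1.99 and 1.58, and Ifi35 by 1.19, 1.15 and 1.32. Ifi44, a GTPase-like gene, differed by 2.00, 1.10 and 1.01, with calls at adjusted p = 0.0131, 0.0309 and 0.0389. Calls of Ifi44 were lost without BALB/c replicate 1 or NOD.H-2b replicate 2 at 2M (adjusted p = 0.0502 and 0.0503), without BALB/c replicate 2, BALB/c replicate 3 or NOD.H-2b replicate 1 at 4M (0.0954, 0.0969 and 0.097), and without BALB/c replicate 2 or any NOD.H-2b mouse at 6M (0.122, 0.129, 0.124 and 0.0507). The 2M call of Rtp4 (adjusted p = 0.018) was lost without BALB/c replicate 1 or any NOD.H-2b mouse (0.071, 0.0549, 0.0661 and 0.0539).

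PARP9 and DTX3L form a complex that joins ubiquitin and ADP-ribose to targets, and PARP14 is an ADP-ribosyl transferase. Parp14 in BALB/c showed 10.1, 15.3 and 9.36 CPM at 2M, 21.4, 15.5 and 22.5 CPM at 4M, and 15.9, 16.4 and 15.5 CPM at 6M. Parp14 in NOD.H-2b showed 55.1, 81.0 and 66.2 CPM at 2M, 97.2, 62.6 and 115 CPM at 4M, and 124, 86.9 and 97.1 CPM at 6M. The difference was 2.59 ± 0.26, 2.21 ± 0.28 and 2.72 ± 0.13. Dtx3l in BALB/c showed 8.04, 10.5 and 6.24 CPM at 2M, 11.9, 10.1 and 11.3 CPM at 4M, and 10.7, 10.3 and 10.7 CPM at 6M. Dtx3l in NOD.H-2b showed 22.6, 31.0 and 27.9 CPM at 2M, 37.2, 25.9 and 37.3 CPM at 4M, and 47.9, 33.5 and 39.2 CPM at 6M. No mice overlapped, and the difference was 1.76 ± 0.22, 1.60 ± 0.15 and 1.96 ± 0.12. Parp9, which overlaps Dtx3l, gave the like values 1.80, 1.64 and 1.88.

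**Figure D2:**
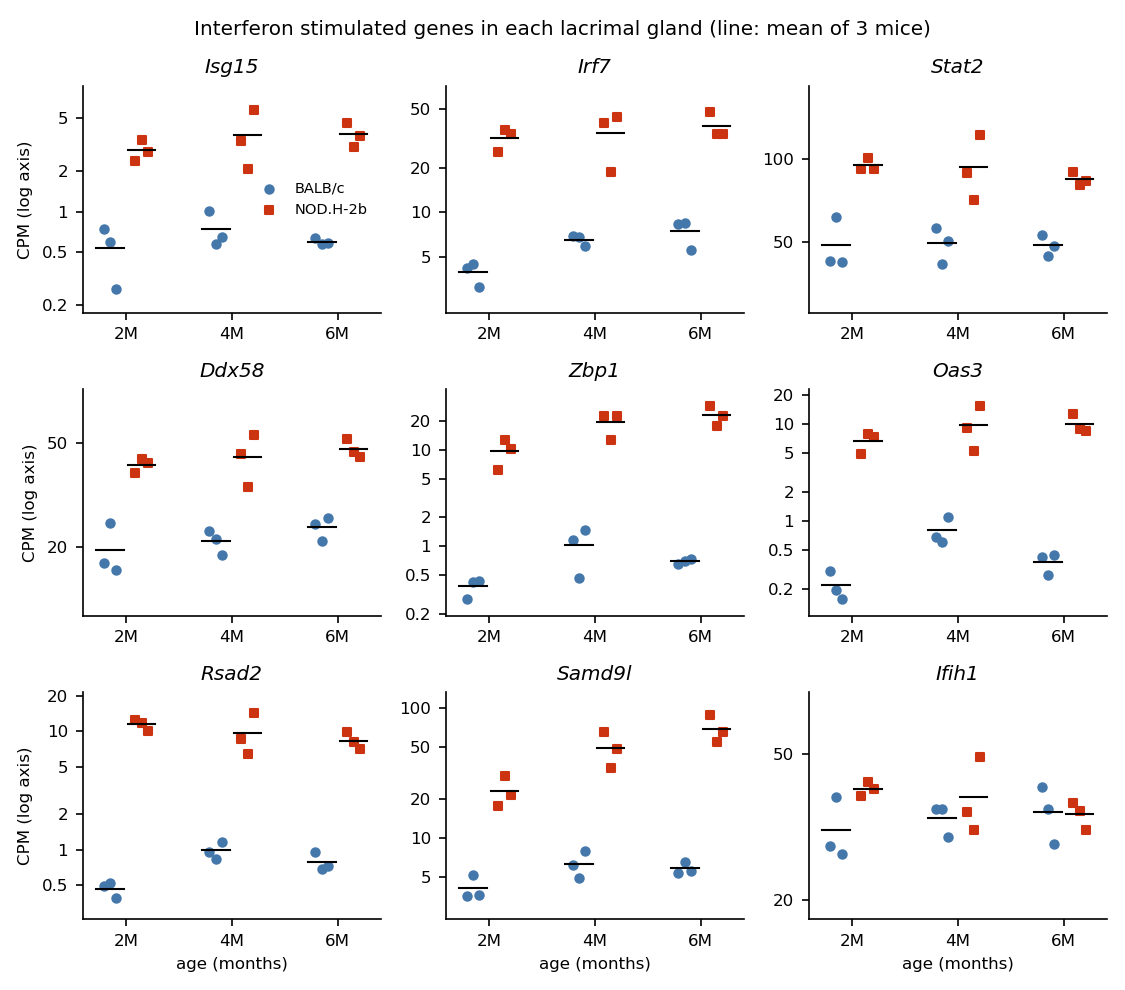
CPM (log axis) of 9 of the genes in each LG by age, with BALB/c as blue circles, NOD.H-2b as red squares and the mean of 3 mice as a black line. The strains are apart at each age in 8 genes and overlap in Ifih1 at 4M and 6M, and NOD.H-2b Samd9l and Zbp1 are higher at 6M than at 2M while Rsad2 is lower.

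The second question was whether the strain difference itself changed with age. In the fit of all 18 mice, the difference at 6M less that at 2M was called lower for 1 of the 37 genes and higher for none, against 9.09% and 7.04% of all genes. That gene was Rsad2, at -1.23 ± 0.37 (adjusted p = 0.0314). The call was lost without BALB/c 2M replicate 3, NOD.H-2b 2M replicate 1, BALB/c 6M replicate 1 or NOD.H-2b 6M replicate 3 (adjusted p = 0.0692, 0.0672, 0.091 and 0.0612), with the value between -1.38 and -1.08 over its 24 alternatives. Before adjustment 5 genes had p under 0.05, namely Rsad2, Trim30a (1.37), Ifi27l2a (-0.95), Samd9l (1.08) and Oas1a (-1.22), and DESeq2 called these 5. The difference at 4M less that at 2M was called by edgeR for none, against 0.696% of all genes called higher and 0.978% lower. Of the 37, 4 had an unadjusted p under 0.05, and DESeq2 called 1 (Rsad2, -1.33). Shares of all genes by those rules were not computed. The 4M less 2M value was negative in 31 of the 37, with a median of -0.34 (0.01 over all genes). NOD.H-2b 4M replicate 2 was the lowest of its group in 37 of 37 genes, so the genes are not separate observations.

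Within the control strain, 6 genes rose from 2M to 4M, against 6.1% of all genes, and none fell, against 5.01%. They were Oas3 (1.88 ± 0.40), Mx1 (1.48), Zbp1 (1.44), Rsad2 (1.08), Irf7 (0.73 ± 0.14) and Parp9 (0.47). The log2 change was above 0 in 36 of the 37 genes, with a median of 0.49 against 0.00 over all genes. BALB/c 2M replicate 3 was the lowest of its group in 31 genes, so these signs are not separate observations. The number of calls fell to 2 without BALB/c 2M replicate 1, 4M replicate 1 or 4M replicate 3 and to 3 without 2M replicate 3, and grew to 9 without 4M replicate 2, to 10 by DESeq2 and to 15 without the filter on low counts. The calls of Mx1, Parp9, Rsad2 and Zbp1 were lost under 6 or 7 of 13 alternatives each. From 4M to 6M none was called by edgeR, against 0.174% of all genes called higher and 0.132% lower. At an unadjusted p under 0.05 there were 7 genes, and DESeq2 called 1 lower. Shares of all genes by those rules were not computed. From 2M to 6M Irf7 alone rose (0.92), against 3.48% of all genes, and none fell, against 2.13%. That call was lost without BALB/c 2M replicate 1 or 3 or 6M replicate 1 or 2 (0 genes called each), while 6 genes were called without 2M replicate 2 and 2 without 6M replicate 3.

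In NOD.H-2b LGs the 37 genes changed with age by unequal amounts. From 2M to 6M, 11 rose, against 20.7% of all genes, and 4 fell, against 19.4%. The median change was 0.26, with a range from -0.47 to 1.56. Those that rose were Samd9l (1.56 ± 0.27), Trim30a (1.35 ± 0.32), Zbp1 (1.21 ± 0.31), Herc6 (0.88 ± 0.18), Ifit2 (0.59), Parp14 (0.59), Sp100 (0.55), Dtx3l (0.55), Parp9 (0.45), Xaf1 (0.45) and Irf9 (0.32). The 4 that fell were Rsad2 (-0.47 ± 0.13), Usp18 (-0.39 ± 0.11), Ifi44 (-0.33 ± 0.12) and Ifih1 (-0.25 ± 0.08). The count of 15 dropped to 8 without NOD.H-2b 2M replicate 1, 4 without 2M replicate 3 and 6 without 6M replicate 3, and the fit of all 18 mice called 7, all higher. Herc6 and Sp100 kept their calls in 13 of 13 alternatives. Samd9l lost its call in 1, while the falls of Ifi44, Ifih1, Usp18 and Rsad2 lost theirs in 11, 9, 5 and 4.

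Between adjacent ages few NOD.H-2b genes were called. Sp100 rose from 2M to 4M (0.49, adjusted p = 0.0251), against 10.3% of all genes called higher (5.97% with the 2-fold minimum) and 5.48% lower, and 3 genes had an unadjusted p under 0.05. None was called there without 2M replicate 1, 2M replicate 3 or 4M replicate 1, while 4 were called higher without 4M replicate 2 and 4 lower without 4M replicate 3. From 4M to 6M none of the 37 was called in edgeR's fit of the 6 mice without a block, against 0.00555% of all genes called higher and 0% lower. DESeq2 called none of them either, and none had an unadjusted p under 0.05 in that edgeR fit.

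**Figure D3:**
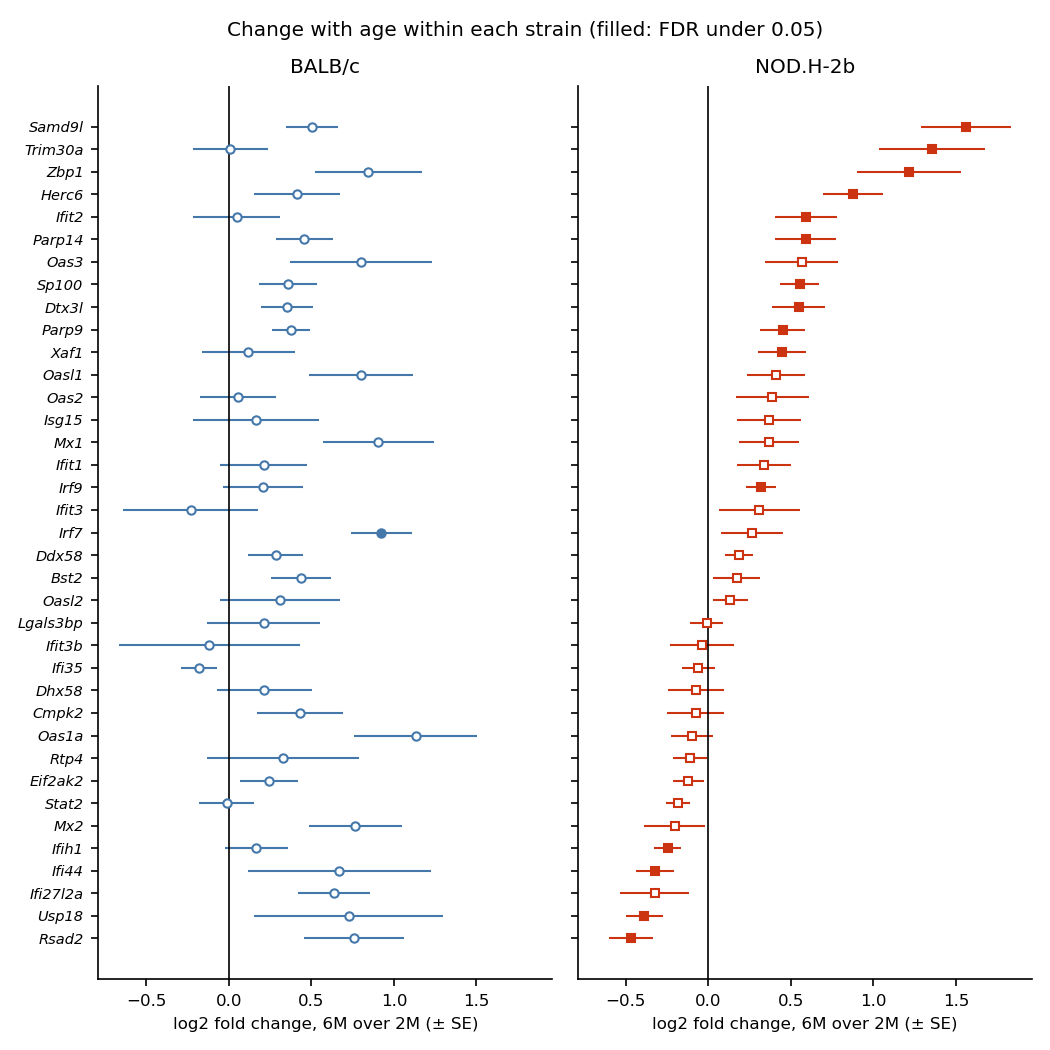
Log2 fold change of 6M over 2M (x axis, ± SE, 3 against 3 mice) for each of the 37 genes in BALB/c (left) and NOD.H-2b (right), ordered by the NOD.H-2b value. Filled points passed an FDR of 0.05: Irf7 in BALB/c, and 11 higher and 4 lower genes in NOD.H-2b.

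In 4 of the 6 groups 1 mouse was the highest in at least 29 of the 37 genes, and the order was more mixed in the older BALB/c groups. Among the 3 NOD.H-2b mice at 4M, replicate 2 was the lowest in 37 of 37 genes and replicate 3 the highest in 32, while these mice were lowest and highest in 28.4% and 32.1% of all genes. At 6M NOD.H-2b replicate 1 was the highest in 36 genes, against 40% of all genes. At 2M NOD.H-2b replicate 2 was the highest in 29 and replicate 1 the lowest in 29, against 34.1% and 33% of all genes. At 2M BALB/c replicate 2 was the highest in 31 and replicate 3 the lowest in 31, against 32.7% and 34.5%. The 3 BALB/c mice were the highest in 20, 4 and 13 genes at 4M and in 22, 9 and 6 at 6M. The summed level of the 37 genes ran from 195.5 to 336 CPM over the 9 BALB/c mice and from 681 to 1191 CPM over the 9 NOD.H-2b mice.

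Markers of immune cells moved with strain as well, and their part in the results was not tested. Of all genes tested, 22.5% were called higher at 2M and 28.6% at 6M. At 2M the 12 macrophage and monocyte markers summed to between 49.3 and 67.5 CPM for BALB/c and between 216 and 257 CPM for NOD.H-2b. Of these 12, 11 were called higher. The 8 T cell markers summed to 0.353 to 0.631 CPM for BALB/c against 8.79 to 31.5 CPM for NOD.H-2b at 2M, and to 1.56 to 1.98 and 73.6 to 104 CPM at 6M, with 8 of 8 higher at each age. The 8 B cell markers summed to 0.123 to 0.682 CPM for BALB/c against 0.968 to 27.3 CPM for NOD.H-2b at 2M, and to 0.912 to 2.30 and 211 to 419 CPM at 6M, where 8 of 8 were higher. At 2M only 3 of the 8 B cell markers were tested, and 2 were called higher. In BALB/c at 2M, 5 of the B cell and 3 of the T cell markers had no more than 3 counts in any mouse. At 6M this held for 3 and 1 of them. Where tested, such markers passed the filter only through NOD.H-2b, so their calls follow from the filter. Over 14 epithelial genes the sum was 1407 to 1459 CPM for BALB/c against 1455 to 1648 CPM for NOD.H-2b at 2M, and 1439 to 1455 and 930.3 to 1144 CPM at 6M.

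Among the NOD.H-2b mice the order by the summed 37 genes matched the order by the lymphocyte marker sums at 2M and 6M and not at 4M. At 2M the 37 genes summed to 742, 902 and 818 CPM, the B cell markers to 0.968, 27.3 and 10.7 CPM and the T cell markers to 8.79, 31.5 and 19.7 CPM. Replicate 1 was the lowest and replicate 2 the highest in each of these sums. The B cell sum of this replicate 1 lay inside the 0.123 to 2.30 CPM of the 9 BALB/c mice, while its T cell, leukocyte and macrophage sums (8.79, 86.0 and 216 CPM) lay above the highest BALB/c mouse (5.80, 58.7 and 147 CPM), as did its 37 genes (742 against 336 CPM). At 6M the 37 genes summed to 1191, 914 and 941 CPM, the B cell markers to 419, 211 and 283 CPM and the T cell markers to 104, 73.6 and 96.7 CPM, with replicate 1 the highest and replicate 2 the lowest in each. Replicates 2 and 3 were nearly tied in the 37 genes, each with a mean log2 CPM of 4.10 (0.1 CPM added). At 4M the 37 genes summed to 995, 681 and 1156 CPM, the B cell markers to 301, 161 and 138 CPM and the T cell markers to 117, 66.5 and 65.6 CPM. There replicate 3 was the highest in the 37 genes and the lowest in both marker sums. The macrophage marker sums gave the order of the 37 genes at 2M (216, 257 and 244 CPM). They shared only the lowest mouse at 4M (389, 360 and 372 CPM) and the highest at 6M (483, 375 and 366 CPM). From 2M to 6M in NOD.H-2b the median change was 4.52 for B cell markers, 2.15 for T cell markers, 1.95 for 6 leukocyte genes and 0.62 for macrophage markers, against 0.26 for the 37 genes. The plot of summed levels shows these courses on 1 scale.

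**Figure D4:**
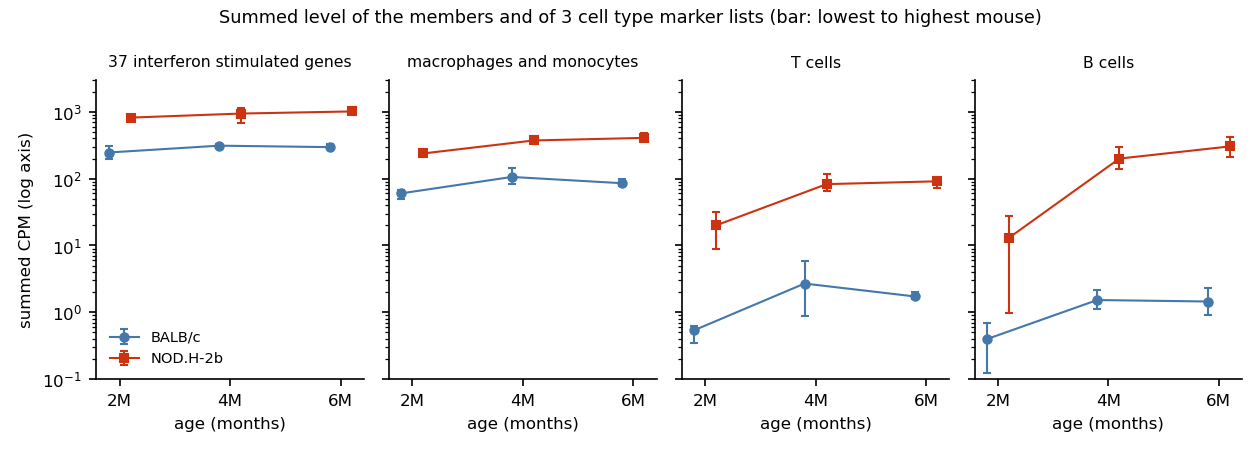
Summed CPM (shared log axis) of the 37 interferon stimulated genes and of the macrophage, T cell and B cell marker lists by age, as the mean of 3 mice with a bar from the lowest to the highest mouse. In NOD.H-2b (red squares) the B cell sum climbs from a mean of 13.0 to 304 CPM between 2M and 6M, while the antiviral genes stay between 681 and 1191 CPM in each mouse.

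Interferon transcripts themselves were almost undetected. Of 20 type I and type III interferon genes in the table, 17 had 0 counts in all 18 LGs. Ifnb1, Ifnk and Ifnab had 1 count each in 1 mouse, so that 3 counts were found in all. A count of 0 in 1 library allows up to 3 counts, which is 0.0322 to 0.0701 CPM over the 18 LGs, so lower levels were not detectable at this depth. Ifng, the type II interferon gene, had 0 or 1 count in each BALB/c mouse. In NOD.H-2b it had 2, 7 and 0 counts at 2M, 21, 6 and 9 at 4M, and 28, 10 and 28 at 6M. It passed the filter at 6M, only through the NOD.H-2b mice, and was called higher there (adjusted p = 3.43e-04). Which interferon acted on the glands was not tested.

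Upstream of the 37 genes, 5 of 6 receptor genes were higher in NOD.H-2b at each age, against 22.5%, 23.4% and 28.6% of all genes. Ifnar1 and Ifnar2, the type I receptor, differed by 0.57 and 0.74 at 2M, 0.84 and 1.01 at 4M, and 1.04 and 1.30 at 6M. Ifngr1 and Ifngr2, the type II receptor, differed by 0.53 and 1.07 at 2M and by 0.94 and 1.16 at 6M. Il10rb, shared by type III interferons and interleukin 10, differed by 0.61 and 0.64. Ifnlr1, the type III receptor of epithelial cells, went the other way, at -0.43 at 2M (adjusted p = 0.107), -0.72 at 4M and -1.20 at 6M, where the last pair passed the test.

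Of 9 signalling genes, 7, 7 and 8 were higher at 2M, 4M and 6M, and none was lower. The shares of all genes were 22.5%, 23.4% and 28.6% higher and 17.2%, 19.2% and 25.8% lower. Socs1, a feedback inhibitor, differed by 2.66, 2.73 and 3.79, and Jak2 by 0.75, 1.10 and 1.44. Jak1 was not called at any age, at -0.14, 0.14 and 0.14. Of 16 genes of interferon induction, 9, 10 and 10 were higher and 4, 3 and 3 lower, with the lower ones near those shares. Endosomal sensors were among the higher ones, with Tlr7 at 2.41, 2.58 and 3.05, Tlr9 at 2.82, 3.35 and 4.57, and Tlr13 at 3.01, 2.71 and 2.57. Tmem173, which encodes STING, differed by 2.22, 2.70 and 3.24, and Irf5 by 2.14, 2.66 and 3.30. The adaptor of RIG-I and MDA5, Mavs, was lower, at -0.24, -0.42 and -0.37, as was Irf3, at -0.38, -0.55 and -0.55.

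A further 59 interferon stimulated genes, listed apart from the 37, were taken for comparison. Of those tested, 50 of 53 were higher at 2M, 46 of 55 at 4M and 49 of 56 at 6M, with medians of 1.52, 1.57 and 1.99. The shares of all genes called higher at these ages were 22.5%, 23.4% and 28.6%. In BALB/c, 8, 5 and 7 of the 59 had no more than 3 counts in any mouse at these ages. Those of them that were tested passed the filter only through NOD.H-2b, which raises the counts and medians given. Those with the smallest p over the ages were Ifitm3 (1.55), Epsti1 (4.58), Trim30d (6.00), Ifit1bl1 and Ifi202b (1.96). Ifit1bl1 had at most 3 counts in any BALB/c mouse and 44 to 103 counts in NOD.H-2b at 2M. The 2 called lower at 2M are named here after their values were seen. Ifi44l, the neighbour of Ifi44 in name and family, averaged 0.66 CPM for BALB/c against 0.0635 CPM for NOD.H-2b at 2M (-3.30, adjusted p = 1.64e-04), and Trim12c had means of 5.05 and 1.86 CPM (-1.40). Of 19 interferon gamma responsive genes, 18 were tested and 18 were higher at each age, with medians of 2.67, 2.82 and 3.96. Of these 19, 2, 2 and 3 had no more than 3 counts in any BALB/c mouse, so the same limit applies.

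Plasmacytoid dendritic cells, known as strong producers of type I interferon, were followed by 11 markers. Of those tested, 3 of 8 were higher at 2M, 8 of 10 at 4M and 9 of 10 at 6M, where 1 was lower. The shares of all genes called higher were 22.5%, 23.4% and 28.6%. In BALB/c, 5, 1 and 5 of the 11 markers had no more than 3 counts in any mouse at 2M, 4M and 6M. Any of these that was tested passed the filter only through NOD.H-2b, where it is higher. Their calls follow from the filter, and the counts are not a test of this list. Siglech, their defining lectin gene, averaged 1.44 CPM for BALB/c against 4.57 CPM for NOD.H-2b at 2M, a difference of 1.71 that missed the threshold (adjusted p = 0.122), and differed by 2.09 at 4M and 2.97 at 6M. In BALB/c at 2M the 11 markers summed to a mean of 80.8 CPM, most of it from genes other than Siglech. Which cells gave these transcripts was not tested.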

How the data were processed

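Total RNA of 1 LG per mouse was depleted of ribosomal RNA and sequenced as paired ends. Per the labels and the study's methods, the authors used cutadapt for trimming, FastQC for quality, STAR for alignment to GRCm38 and HTSeq for the counts per gene. Versions, annotation release, strand setting and the handling of reads that fit several genes are not given in the sources used here. The deposited raw counts were used. A second table, of values normalized by the authors, was not used. Both strains were aligned to 1 C57BL/6J reference.

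Counts were tested with edgeR 4.0.16 (R 4.3.3, limma 3.58.1), after TMM scaling and filterByExpr, in its quasi-likelihood form with robust dispersions. P-values were adjusted by Benjamini-Hochberg over all genes tested. Each strain or age comparison was fitted on its 6 mice, and averages over ages and differences between differences on all 18. Calls required an FDR under 0.05, and DEGs also a 2-fold change. SE was the log2 fold change divided by the root of F. CPM were scaled by TMM factors of all 18 mice. Of 54232 genes, 21452 had no count. On simulated data at 2M, 65.9% of 2-fold and 84.2% of 4-fold changes were recovered over 17635 genes, with 6.12% of calls wrong. For the change of the strain difference from 2M to 6M, 41.4% of 2-fold and 73.7% of 4-fold changes were recovered over 18500 genes, with 5.79% of calls wrong. Few genes were changed in these simulations, at 2M 88 of those tested by 2-fold and 95 by 4-fold. Each gene started from its mean over all mice, with the dispersions of the fit of all 18. The data hold many more differences, so these rates need not hold for the tests reported.

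The 37 genes, their roles and the other lists were chosen with earlier results of these data known. Log2 changes are given for each of the 37. Values per mouse are given for Isg15, Irf7, Stat2, Ddx58, the genes with the largest and smallest averaged strain difference in each role, any gene called lower in a strain comparison and the 5 with the smallest p for the change of the strain difference from 2M to 6M. Of other lists, up to 5 genes with the smallest averaged p could be named, and pathway genes freely. Alternatives were DESeq2 1.42.0 (Wald test), its size factors, upper quartile scaling, no filter, a minimum of 10 counts in every sample, the replicate number as a block, a fit of all 18 mice and leaving out each mouse. The mice of a group were separate animals. The values of 1 signalling gene are not reported here.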

Additional observations from a re-analysis of the deposited data

Results flagged for a closer look

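Results are given here where the strain difference itself differed between ages in the fit of all 18 mice (edgeR, FDR under 0.05), as the log2 strain difference (NOD.H-2b over BALB/c) at the later age less that at 2M. Among the 37 interferon stimulated genes this was Rsad2, at -1.23 from 2M to 6M. Among receptor genes it was Ifnar1, at 0.48, and Ifnlr1, at -0.76. Among signalling genes it was Jak1, at 0.29, Jak2, at 0.69, and Irf2, at 0.66. Of the genes of interferon induction, Tlr3 changed by -0.93, Unc93b1, which carries endosomal receptors, by 0.84, Irf5 by 1.17, and Ikbke by 0.56 from 2M to 6M and by 0.94 from 2M to 4M. Ikbke was lower in NOD.H-2b at 2M (-0.63) and higher at 4M (0.27).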

How the results depend on the processing

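The strain calls kept their direction for 36 of the 37 genes under every alternative run. Leaving out 1 mouse gave 32 to 37 genes called at 2M, 31 to 36 at 4M, 35 to 36 at 6M and 36 to 37 averaged over ages. Ifih1 at 6M changed sign under upper quartile scaling (-0.0259) and in the fit of all 18 mice (-0.0236), and without 1 mouse it ranged from -0.12 to 0.1363 at 6M (-0.0321 without NOD.H-2b 6M replicate 1) and from -0.0249 to 0.3253 at 4M. Counts within a strain were less stable, and the cause was not tested. Without the filter on low counts, the change of the strain difference from 2M to 6M was called in 0 genes, BALB/c 2M to 4M in 15, 4M to 6M in 3 and 2M to 6M in 8. DESeq2 called 5 genes for the strain difference from 2M to 6M, 1 from 2M to 4M, 10 for BALB/c 2M to 4M, 1 for 4M to 6M, 4 for 2M to 6M and 3 for NOD.H-2b 2M to 4M. The fit of all 18 mice called 0 for BALB/c 2M to 6M, 4 for NOD.H-2b 2M to 4M and 7 for 2M to 6M. Leaving out 1 mouse gave 0 to 3 for the strain difference from 2M to 6M and 0 to 1 from 2M to 4M, 2 to 9, 0 to 0 and 0 to 6 for BALB/c 2M to 4M, 4M to 6M and 2M to 6M, and 0 to 4, 0 to 0 and 4 to 14 for the same steps in NOD.H-2b. For the strain difference from 2M to 6M, 3 genes were called without NOD.H-2b 2M replicate 2 and 2 without NOD.H-2b 4M replicate 2 or 6M replicate 2, and from 2M to 4M 1 without NOD.H-2b 4M replicate 3.

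The mice were not treated as paired by replicate number. Deviations of same-numbered mice from their group means correlated between -0.42 and 0.43 over 27 pairs. Mice with different numbers were not compared, so whether a batch follows the number was not tested. With the replicate number as a block, 37, 34 and 36 genes were called between strains at 2M, 4M and 6M and 36 averaged over ages, 1 and 0 for the change of the strain difference, 4 for BALB/c 2M to 4M and 4 for 2M to 6M, and 0, 2 and 3 for NOD.H-2b 2M to 4M, 4M to 6M and 2M to 6M. The block ended the 4M strain calls of Oas1a and Eif2ak2 (adjusted p = 0.0806 and 0.0573). Without the filter, the 4M calls of Eif2ak2, Ifi44, Mx2, Oas1a and Stat2 were lost (adjusted p = 0.0727, 0.111, 0.0859, 0.0623 and 0.07).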
